A study of Mus musculus with 24 samples.

Results

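Serpins and the plasminogen activation system were followed in 24 libraries of mOSE cells, mouse cells grown from the single layer of epithelium that covers the ovary. The members were chosen by symbol alone: every gene of the serpin clades a to i with a numbered name, the plasminogen activators Plau and Plat, the urokinase receptor Plaur, and Slpi. They are 67 of the 35687 genes in the values of the first experiment, and the same 67 stand in those of the other 2 experiments. In the first experiment the line m1102 was grown as TGFB1 spheroids, untreated spheroids, TGFB1 monolayers or untreated monolayers, 3 libraries each. TGFB1, transforming growth factor beta 1, was given at 10 ng/mL. Spheroid cells received it for 4 days before they were moved to low-attachment plates, and the labels give no duration for the monolayers. In the second experiment m1102 monolayers carried a lentiviral Snail construct or the empty WPI vector, 3 libraries each. In the third, a separate line (mOSE_BRCA1_fl) from mice with floxed Brca1 alleles, which both groups carry, received adenovirus with Cre recombinase (BRCA1_ko) or with GFP (BRCA1_wt), 3 libraries each. All cells grew in medium with 4% serum and EGF. The series sets these states side by side to profile stem-like features of this epithelium.

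Serpins trap serine proteases, and some cysteine proteases, by offering a reactive loop that the protease cleaves and cannot leave. The urokinase-type and tissue-type activators cut plasminogen into plasmin, a broad protease that dissolves fibrin and matrix. PAI-2 (Serpinb2), protease nexin 1 (Serpine2) and neuroserpin (Serpini1) are among the inhibitors of the activators. In the ovary this system is best known for its part in follicle rupture at ovulation, next to the surface epithelium. Clade a serpins are mostly secreted and clade b serpins mostly stay inside the cell, and a few serpins, such as the collagen chaperone HSP47 (Serpinh1), inhibit no protease. SLPI is a small secreted inhibitor of leukocyte elastase and cathepsin G from another protein family.

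Expression is given as scaled TPM, a value per transcript length that the authors deposited as TPM and that appears to carry a further factor per library, since libraries did not have equal sums. The sums were 955433 to 1166749 for m1102 monolayers and spheroids, 983449 to 1021026 for Snail and vector cells and 796668 to 1810667 for the BRCA1 cells. Read depth is unknown and levels are not compared between experiments. The labels do not say whether a group's libraries come from separate cultures, and p-values then measure only the spread between these libraries, which may be technical. The 6 monolayer libraries of the first experiment are titled as re-analysed and the spheroid libraries are not. Culture and library origin therefore cannot be told apart. For untreated monolayers 1 and 2 the labels refer to a single earlier sample, but their values differed (r = 0.991 on the log2 scale). Untreated spheroid 3 (r = 0.970 with each of its fellows), TGFB1 spheroid 1 (0.965 and 0.969) and TGFB1 monolayer 1 (0.983 and 0.984) stood apart from their groups. BRCA1_wt library 2 correlated at 0.866 and 0.917 with the other BRCA1_wt libraries and at 0.923 to 0.935 with the 3 BRCA1_ko libraries. The columns of the BRCA1_ko libraries are named only BRCA and were assigned because the remaining columns are named as controls, so the direction of that experiment rests on this reading. Brca1 itself was 5.34, 11.1 and 4.09 scaled TPM in the libraries labelled BRCA1_ko and 4.27, 12.3 and 3.66 in the libraries labelled BRCA1_wt (adjusted p = 0.904), a value over the whole gene that does not check the labels. Snai1 was 234, 195 and 193 in Snail libraries and 13.7, 10.1 and 9.81 in vector libraries.

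Of 11 ovarian surface and mesothelial markers, 7 averaged at least 1 scaled TPM in TGFB1 spheroids, 9 in untreated spheroids, 9 in TGFB1 monolayers and 10 in untreated monolayers, and Krt8 was near 0 throughout (0.189 ± 0.0245 in untreated monolayers, SD, n = 3). In spheroids the summed level of the list was 219 to 440.0 scaled TPM with TGFB1 and 242 to 443 untreated, against 1135 to 1508 in TGFB1 monolayers and 2236 to 2372 in untreated monolayers. The sum of 5 endothelial markers was 26.0 to 52.4 in TGFB1 spheroids, 2.41 to 6.67 in untreated spheroids, 1.70 to 2.24 in TGFB1 monolayers and 1.05 to 1.24 in untreated monolayers. Most of the sum in TGFB1 spheroids was Cdh5, which had 51.3, 32.8 and 23.9 there, against 3.44, 1.41 and 0.668 in untreated spheroids. Of the 5 markers 2 averaged at least 1 in TGFB1 spheroids, 2 in untreated spheroids, 1 in TGFB1 monolayers and 0 in untreated monolayers. Those in TGFB1 spheroids were Cdh5 and Pecam1, with Kdr, Tek and Emcn below 0.3 in each TGFB1 spheroid library. Of 8 leukocyte markers only Cd68 averaged at least 1, at 11.5, 62.5 and 51.9 in TGFB1 spheroids and 65.8, 62.2 and 14.2 in untreated spheroids, with Ptprc, Lyz2 and Adgre1 at or near 0. The summed leukocyte level was 12.1 to 63.7 in TGFB1 spheroids, 14.9 to 67.1 in untreated spheroids, 8.22 to 10.9 in TGFB1 monolayers and 19.3 to 26.8 in untreated monolayers. The part of these marker changes in the serpin results was not tested. Since these are bulk libraries, fewer cells of a type and less RNA per cell cannot be told apart.

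A member was tested where at least 3 libraries of its experiment reached 1 scaled TPM. That left 28 of the 67 members in the first experiment, 12 with Snail and 13 with BRCA1, and 39 were tested nowhere. In the first experiment 4 members were at 0 in all 12 libraries, 29 were above 0 but never reached 1, and 6 reached 1 in only 1 or 2 libraries. Plau, the urokinase gene (GRCm38 chromosome 14, 20836660 to 20843385), was among those that never reached 1: its highest value was 0.333 in m1102 monolayers and spheroids, 0.277 among Snail and vector cells and 0.709 among the BRCA1 cells. Plg, the plasminogen gene, was at 0.0159 or less in every library of the first experiment. Liver serpins that act in plasma, such as antithrombin (Serpinc1, at most 0.720), heparin cofactor 2 (Serpind1, at most 0.943) and the plasmin inhibitor alpha-2-antiplasmin (Serpinf2, at most 0.566), also stayed below 1 there.

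The members' summed level was led by different genes in spheroids and in monolayers. Serpinb2 made up 40.9% of the mean over TGFB1 spheroids, and Slpi 16.6%, but the lead of Serpinb2 rested on TGFB1 spheroids 2 and 3 (52.0% and 40.7%). In TGFB1 spheroid 1 it made up 2.88% and Slpi led with 25.2%. Without TGFB1 spheroid 2 the mean of Serpinb2 was 1683 scaled TPM, or 29.7%, against 3106 over all 3 libraries. In untreated spheroids Serpinb6a led with 31.6%, and Serpinh1 made up 16.3%. Serpinh1 led in both monolayer groups, with 52.6% in TGFB1 monolayers and 56.1% in untreated monolayers, where Serpinb6a (14.4%) and Slpi (11.1%) were next.

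Differences were tested with limma over all genes that passed the filter, on log2(scaled TPM + 1), a scale that understates the change of low genes. The threshold for a call was 0.05 on the p-value after Benjamini-Hochberg adjustment, two-sided. In TGFB1 spheroids against untreated spheroids 14 of the 28 tested members were called higher and 9 lower, beside 18.8% and 16.8% of the 13509 genes tested (35.6% in all). In TGFB1 against untreated monolayers 9 members were called higher and 2 lower, beside 9.12% and 7.79% of all genes (16.9%). In TGFB1 spheroids against TGFB1 monolayers 17 were called higher and 5 lower, beside 25.3% and 26.5% (51.9%). In untreated spheroids against untreated monolayers 13 were called higher and 1 lower, beside 27.6% and 27.7% (55.2%). Groups did not overlap for 13 members higher and 7 lower with TGFB1 in spheroids (43.9% of all genes) and for 12 higher and 6 lower with TGFB1 in monolayers (47.5%). For spheroid culture they did not overlap for 16 higher and 5 lower in TGFB1 cells (59.4%) and for 18 higher and 3 lower in untreated cells (65.3%). The median log2 fold change of the tested members was 1.01 for TGFB1 in spheroids, 0.119 for TGFB1 in monolayers, 1.44 for spheroid culture of TGFB1 cells and 0.827 for that of untreated cells, while the medians of all genes lay between 0.00255 and 0.0135. These counts are descriptions: 3 of the 28 members had every value of at least 1 in a single group of the 4, and such a member passed the filter through the group where it was high. These are Serping1 and Serpina3m, through TGFB1 spheroids, and Serpina3a, through untreated spheroids. Others reached 1 in spheroids alone (Serpina3n, Serpine2, Serpinb1b, Serpinb11, Serpina6 and Serpinb7) or in TGFB1 libraries alone (Serpina3f, g, h and i). The same limit holds for the former in the comparisons of culture and for the latter in those of TGFB1. Over the 13 members that averaged at least 1 in all 4 groups the calls were 5 higher and 5 lower for TGFB1 in spheroids, 5 and 2 for TGFB1 in monolayers, 6 and 5 for spheroid culture of TGFB1 cells, and 6 and 1 for that of untreated cells. The 2 TGFB1 comparisons share no library, but each shares a group with each comparison of culture.

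**Figure D1:**
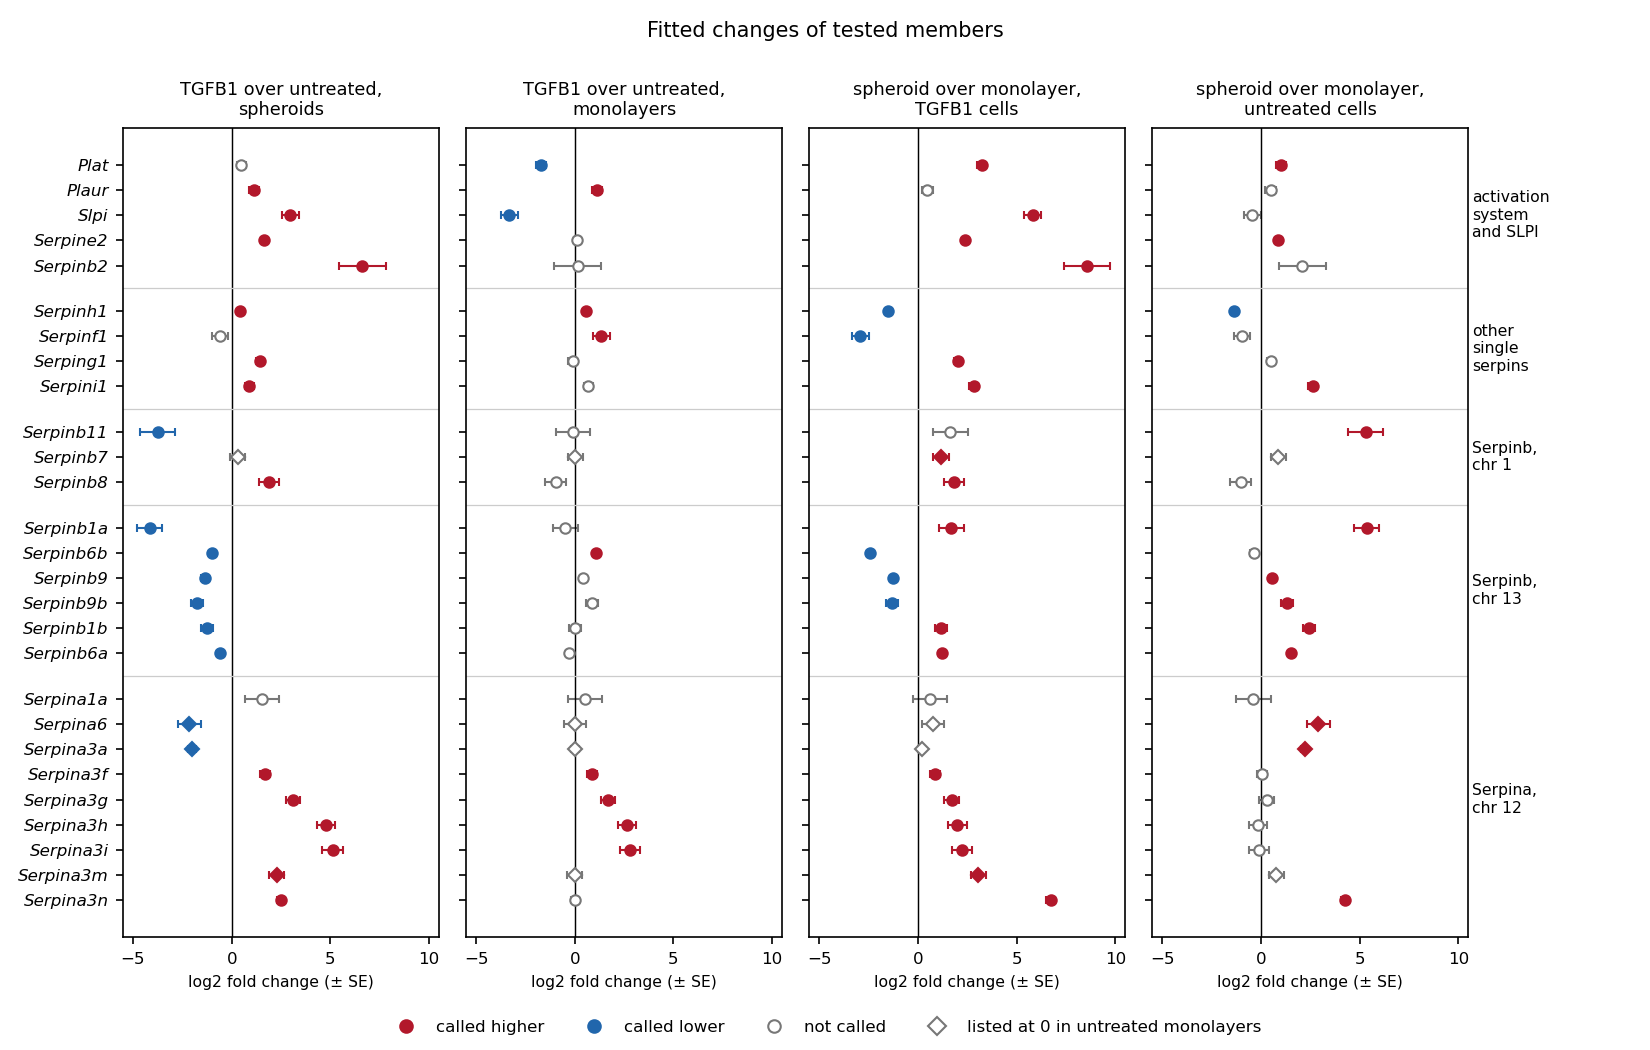
Log2 fold change (x axis, on the log2(scaled TPM + 1) scale, bars are standard errors) of tested members (y axis) in 4 comparisons of the first experiment, 3 libraries a group. Filled red and blue points were called higher and lower, and open points were not called. Diamonds mark members listed at 0 in all untreated monolayers, whose fitted changes are no bounds. With TGFB1 the 6 Serpinb genes of chromosome 13 lie left of 0 in spheroids, and Serpina3f, g, h and i lie right of 0 in both cultures.

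The activator that these cells did express was Plat, tissue-type plasminogen activator (GRCm38 chromosome 8, 22757727 to 22782844). TGFB1 lowered it in monolayers and spheroid culture raised it. It had 10.2, 19.9 and 19.7 scaled TPM in TGFB1 monolayers, against 51.4, 56.6 and 55.9 in untreated monolayers (log2 fold change -1.72 ± 0.24, adjusted p = 0.00126). In TGFB1 spheroids it had 197, 116 and 171, against 103, 105 and 129 in untreated spheroids (log2 fold change 0.49 ± 0.24, adjusted p = 0.139). The monolayer groups did not overlap and the spheroid groups did. Plat in spheroids exceeded that in monolayers by 3.23 ± 0.24 on the log2 scale in TGFB1 cells (adjusted p = 1.54e-06) and by 1.02 ± 0.24 in untreated cells (adjusted p = 0.00437). The effect of TGFB1 in spheroids minus that in monolayers was 2.21 ± 0.34 (adjusted p = 0.00212).

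Plaur, the receptor that holds urokinase at the cell surface (GRCm38 chromosome 7, 24462484 to 24475968), rose with TGFB1 by about the same amount in both cultures. TGFB1 spheroids had 214, 323 and 239 scaled TPM, against 140.1, 131 and 84.9 in untreated spheroids (log2 fold change 1.13 ± 0.27, adjusted p = 0.00744). TGFB1 monolayers had 276, 148 and 148, against 93.7, 70.6 and 84.5 in untreated monolayers (log2 fold change 1.13 ± 0.27, adjusted p = 0.015). The groups overlapped in neither culture, with TGFB1 monolayer 1 well above the other two. The difference between the 2 effects was -0.01 ± 0.38 (adjusted p = 0.995), which does not show that they are equal. The monolayer call was lost without untreated monolayer 2 (log2 fold change 1.02, adjusted p = 0.0632). Plaur passed no test for spheroid culture itself (0.48 ± 0.27 in TGFB1 cells and 0.49 ± 0.27 in untreated cells). The promoters of Plaur, Serpinb2 and Slpi, the receptor and the 2 inhibitors described next, are shown because these genes moved with TGFB1 and the windows hold no annotated exon. Each is the 250 bases before the RefSeq transcript start, build GRCm38.p6, 5′ to 3′ on the gene's strand, with matches to 4 motifs in capitals. The motifs, searched on both strands with matches that may share end bases, were AP-1 (TGANTCA, in 6.75% of 32851 such windows), the SMAD-type CAGACA (17.1%), the E-box CAGGTG that Snail binds (17.2%) and TATAAA (12.4%). The Plaur window (chr7:24462233-24462482, plus strand) holds 1 AP-1 match that begins 69 bases before the start, and a match is a description of letters, not a binding site.
Plaur: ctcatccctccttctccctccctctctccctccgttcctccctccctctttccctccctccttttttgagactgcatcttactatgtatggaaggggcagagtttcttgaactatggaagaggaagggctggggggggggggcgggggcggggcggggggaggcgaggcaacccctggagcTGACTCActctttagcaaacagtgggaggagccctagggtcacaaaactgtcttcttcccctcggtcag

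Serpinb2, the mostly intracellular inhibitor of urokinase, had the largest fitted change of the members in TGFB1 spheroids (GRCm38 chromosome 1, 107511423 to 107535478). It had 94.5, 5951 and 3272 scaled TPM there, against 17.1, 17.97 and 4.64 in untreated spheroids (log2 fold change 6.63 ± 1.18, adjusted p = 0.00173). Both monolayer groups were low, with 2.30, 2.00 and 2.37 in TGFB1 monolayers and 2.18, 1.69 and 1.93 in untreated monolayers (log2 fold change 0.14 ± 1.18, adjusted p = 0.966). The spheroid groups did not overlap, but TGFB1 spheroid 1 was far below libraries 2 and 3 and untreated spheroid 3 far below libraries 1 and 2. The TGFB1 effect in spheroids was 5.49 to 8.47 when any 1 of the 6 spheroid libraries was left out and stayed called, highest without TGFB1 spheroid 1. The difference between the effects, 6.49 ± 1.67 (adjusted p = 0.0247), was not called in 6 of the 12 fits without 1 library (adjusted p = 0.0505 to 0.0555): those without any 1 untreated monolayer, without TGFB1 monolayer 2 or 3, and without TGFB1 spheroid 2. Its rise with spheroid culture in untreated cells did not pass (log2 fold change 2.09 ± 1.18, adjusted p = 0.157). Serpinb10 shares 11.2% of the 31-base words of Serpinb2 transcripts and stayed at or below 0.352 in all m1102 monolayers and spheroids. The promoter window of its first annotated start (chr1:107511173-107511422, plus strand) holds 1 AP-1 match, beginning 94 bases before the start, and 1 TATA match at 29 bases.
Serpinb2: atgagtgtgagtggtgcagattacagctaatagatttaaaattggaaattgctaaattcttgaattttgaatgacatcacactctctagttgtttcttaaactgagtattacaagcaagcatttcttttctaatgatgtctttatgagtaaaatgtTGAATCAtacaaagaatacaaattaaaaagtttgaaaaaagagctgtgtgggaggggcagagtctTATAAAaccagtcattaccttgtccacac

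Serpine2 and Serpini1, further inhibitors of plasminogen activators, were low in monolayers and higher in spheroids. Serpine2, which also inhibits thrombin, had 7.36, 7.46 and 6.59 scaled TPM in TGFB1 spheroids, against 1.40, 1.57 and 1.92 in untreated spheroids (log2 fold change 1.63 ± 0.14, adjusted p = 1.64e-05). In TGFB1 monolayers it had 0.687, 0.374 and 0.564, against 0.407, 0.556 and 0.349 in untreated monolayers, with overlapping groups (log2 fold change 0.10 ± 0.14, adjusted p = 0.692). Serpini1, neuroserpin, an inhibitor of Plat best known from neurons, had 9.84, 13.5 and 13.2 in TGFB1 spheroids, against 7.09, 6.54 and 4.75 in untreated spheroids (log2 fold change 0.89 ± 0.23, adjusted p = 0.0112). All spheroid libraries of both genes were above all monolayer libraries. Serpini1 had 1.66, 0.505 and 0.55 in TGFB1 monolayers, against 0.104, 0.177 and 0.132 in untreated monolayers (log2 fold change 0.69 ± 0.23, adjusted p = 0.06). For spheroid culture Serpine2 rose by 2.40 ± 0.14 on the log2 scale in TGFB1 cells and by 0.87 ± 0.14 in untreated cells, and Serpini1 by 2.83 ± 0.23 and 2.63 ± 0.23 (adjusted p = 2.34e-07 to 0.000355). Serpine2 reached 1 only in spheroid libraries and passed the filter through that culture, so its calls for culture are not read as support. Outside spheroids, Serpini1 reached 1 only in TGFB1 monolayer 1. The Serpini1 calls depended on the settings. With a pseudocount of 0.1 in place of 1 the call for TGFB1 in spheroids was lost (log2 fold change 0.99, adjusted p = 0.0627), and the monolayer effect was called and larger (1.91, adjusted p = 0.00697). The monolayer effect was also called with libraries rescaled to equal sums (0.71, adjusted p = 0.048) and with library quality weights (0.46, adjusted p = 0.00358).

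**Figure D2:**
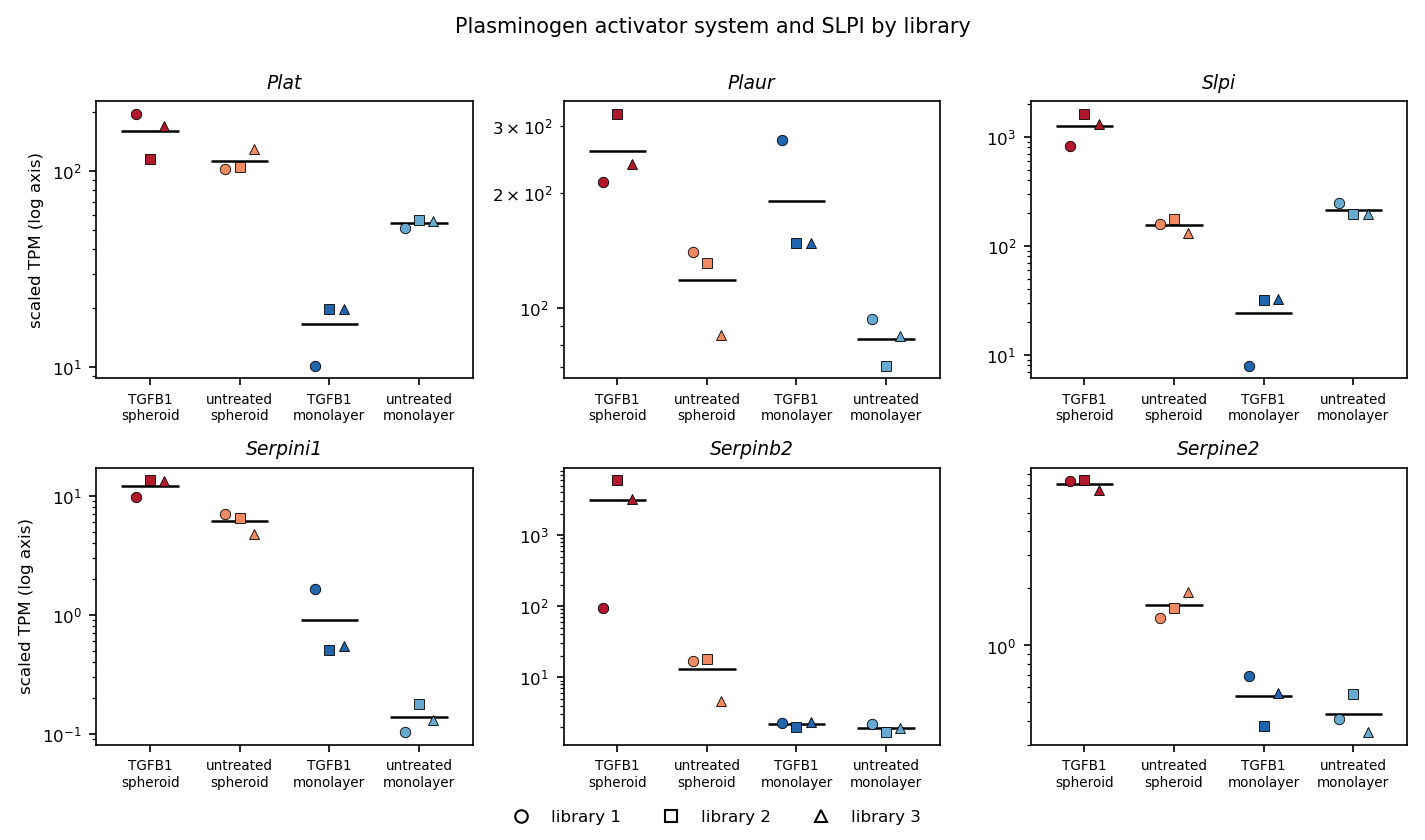
Scaled TPM (y axis, log scale, different ranges) of Plat, Plaur, Slpi, Serpini1, Serpinb2 and Serpine2 in each library of the 4 groups (x axis). Symbols are libraries 1 to 3 and lines are group means. Slpi and Plat are lowest in TGFB1 monolayers and highest on average in TGFB1 spheroids, and Serpinb2 ranges from 94.5 to 5951 in TGFB1 spheroids.

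Slpi, the inhibitor of leukocyte elastase (GRCm38 chromosome 2, 164354070 to 164389095), moved in opposite directions with TGFB1 in the 2 cultures. In TGFB1 spheroids it had 826, 1627 and 1318 scaled TPM, against 159, 176 and 132 in untreated spheroids (log2 fold change 2.96 ± 0.43, adjusted p = 0.000583). In TGFB1 monolayers it had 7.93, 32.0 and 32.3, against 245, 195 and 198 in untreated monolayers (log2 fold change -3.31 ± 0.43, adjusted p = 0.000814). Neither pair of groups overlapped: every TGFB1 spheroid was above, and every TGFB1 monolayer below, its untreated libraries. The difference between the 2 effects was 6.27 ± 0.61 (adjusted p = 0.000131), and it stayed called without any 1 of the 12 libraries (5.64 to 6.59). TGFB1 monolayer 1 had the lowest value, and without it the monolayer effect was -2.68, adjusted p = 0.00027. Spheroid culture raised Slpi in TGFB1 cells by 5.82 ± 0.43 (adjusted p = 1.42e-06, 5.19 without TGFB1 monolayer 1) and did not pass in untreated cells (log2 fold change -0.45 ± 0.43, adjusted p = 0.405). The promoter window (chr2:164356508-164356757, minus strand) lies within the annotated gene span and overlaps no annotated exon. It holds 1 match to the E-box, beginning 45 bases before the start.
Slpi: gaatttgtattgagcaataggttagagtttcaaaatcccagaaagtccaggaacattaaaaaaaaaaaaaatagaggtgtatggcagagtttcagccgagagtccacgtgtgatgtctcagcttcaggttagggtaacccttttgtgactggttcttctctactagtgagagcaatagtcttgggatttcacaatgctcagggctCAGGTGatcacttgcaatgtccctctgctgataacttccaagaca

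Among serpins outside the genomic clusters, Serpinh1, which folds collagen in the endoplasmic reticulum, fell with spheroid culture and rose with TGFB1. It had 627, 537 and 525 scaled TPM in TGFB1 spheroids and 409.6, 370.3 and 467 in untreated spheroids, against 1828, 1556 and 1459 in TGFB1 monolayers and 1104, 1027 and 1093 in untreated monolayers. All spheroid libraries were below all monolayer libraries (-1.52 ± 0.11 in TGFB1 cells and -1.37 ± 0.11 in untreated cells, adjusted p = 1.53e-06 and 3.51e-06). TGFB1 raised it by 0.44 ± 0.11 in spheroids (adjusted p = 0.0126) and by 0.58 ± 0.11 in monolayers (adjusted p = 0.00657). The spheroid call was lost when libraries were rescaled to equal sums (0.25, adjusted p = 0.138), when only the 6 spheroid libraries were fitted (adjusted p = 0.0537) and without untreated spheroid 2 (0.36, adjusted p = 0.0545).

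Serpinf1, the secreted anti-angiogenic factor PEDF, had 25.3, 21.9 and 24.5 scaled TPM in TGFB1 monolayers, against 9.40, 9.06 and 7.85 in untreated monolayers (log2 fold change 1.35 ± 0.41, adjusted p = 0.0469). In TGFB1 spheroids it had 1.40, 1.94 and 4.07, against 2.67, 2.08 and 10.1 in untreated spheroids (log2 fold change -0.60 ± 0.41, adjusted p = 0.282). The monolayer groups did not overlap, and the spheroid groups did, with library 3 the highest of each. Spheroid culture lowered it in TGFB1 cells (log2 fold change -2.91 ± 0.41, adjusted p = 0.000158). The monolayer call did not survive the removal of any single monolayer library of the 6 (adjusted p = 0.0909 to 0.132). The difference between the TGFB1 effects, -1.95 ± 0.58 (adjusted p = 0.045), was lost in 8 of 12 fits that leave out 1 library, namely without any 1 monolayer library and without TGFB1 spheroid 1 or 2 (adjusted p = 0.0778 to 0.1). Serping1, the C1 inhibitor that restrains complement and plasma kallikrein, had 2.30, 4.34 and 3.19 in TGFB1 spheroids, against 0.776, 0.779 and 0.221 in untreated spheroids (log2 fold change 1.42 ± 0.21). In monolayers it was at or below 0.173. It reached 1 in TGFB1 spheroids alone and passed the filter only through that group, so its tests are not read as support and no p is given.

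The clade b genes of chromosome 13 (GRCm38, 32842092 to 34002794) hold 15 members, of which 6 were tested. All 6 tested genes were called lower in TGFB1 spheroids than in untreated spheroids, beside 16.8% of all genes, and 5 of the 6 were called higher in untreated spheroids than in untreated monolayers, beside 27.6%. Among the latter, Serpinb1b reached 1 only in spheroid libraries and passed the filter through that culture, so its call for culture is not read as support. Serpinb1a, an inhibitor of neutrophil elastase, had 12.5, 3.40 and 45.4 scaled TPM in TGFB1 spheroids, against 217, 193 and 365 in untreated spheroids (log2 fold change -4.15 ± 0.63, adjusted p = 0.000707). In TGFB1 monolayers it had 2.51, 3.41 and 4.23, against 4.74, 4.92 and 5.62 in untreated monolayers (log2 fold change -0.49 ± 0.63, adjusted p = 0.658). Its rise in untreated spheroids over untreated monolayers was 5.36 ± 0.63 (adjusted p = 4.08e-05). TGFB1 spheroid 3 was the highest and library 2 the lowest of their group, and without them the TGFB1 effect was -5.02 and -3.32. Its call for spheroid culture of TGFB1 cells (log2 fold change 1.70 ± 0.63, adjusted p = 0.0423) was lost in 5 of 6 fits that leave out 1 library, without any 1 TGFB1 monolayer, without TGFB1 spheroid 1 and without TGFB1 spheroid 3, where it was 0.83 (adjusted p = 0.124), while without TGFB1 spheroid 2 it was 2.53.

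Serpinb6a, the relative of human SERPINB6, an inhibitor of cathepsin G, had 459, 554 and 581 scaled TPM in TGFB1 spheroids, against 887, 883 and 647 in untreated spheroids (log2 fold change -0.59 ± 0.14, adjusted p = 0.00765). It had 234, 217 and 223 in TGFB1 monolayers, against 238, 283 and 305 in untreated monolayers (log2 fold change -0.28 ± 0.14, adjusted p = 0.201). Spheroid culture raised it by 1.23 ± 0.14 in TGFB1 cells and by 1.54 ± 0.14 in untreated cells (adjusted p = 3.17e-05 and 6.6e-06). Its neighbour Serpinb1b had 0.979, 1.67 and 3.43 in TGFB1 spheroids, against 7.03, 7.87 and 3.45 in untreated spheroids (log2 fold change -1.25 ± 0.31, adjusted p = 0.009), and 0.35, 0.278 and 0.153 in TGFB1 monolayers, against 0.162, 0.347 and 0.291 in untreated monolayers. For both genes each spheroid library was above each monolayer library. The call of Serpinb1b for TGFB1 in spheroids was lost when only the 6 spheroid libraries were fitted (adjusted p = 0.0603). Of the 31-base words in Serpinb6a transcripts 29.0% also occur in other genes (13.1% in Nqo2), and of those of Serpinb1b 8.28%.

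The other 3 tested genes of the cluster had fitted TGFB1 effects of opposite sign in the 2 cultures, and all 3 differences were called. Serpinb6b had 31.4, 35.2 and 49.2 scaled TPM in TGFB1 spheroids, against 68.7, 77.1 and 84.6 in untreated spheroids (log2 fold change -0.99 ± 0.16, adjusted p = 0.00107). In TGFB1 monolayers it had 203, 217 and 211, against 81.5, 113 and 108 in untreated monolayers (log2 fold change 1.07 ± 0.16, adjusted p = 0.00184). Its difference between effects was -2.06 ± 0.23 (adjusted p = 0.000321). Serpinb9, the inhibitor that protects cells from granzyme B, had 9.52, 6.19 and 11.1 in TGFB1 spheroids, against 22.8, 23.0 and 27.2 in untreated spheroids (log2 fold change -1.38 ± 0.16, adjusted p = 0.000156). It had 23.5, 21.0 and 22.1 in TGFB1 monolayers, against 15.4, 16.2 and 16.7 in untreated monolayers, where the groups did not overlap but the test was not passed (log2 fold change 0.44 ± 0.16, adjusted p = 0.0894, difference between effects -1.82 ± 0.23, adjusted p = 0.000676). Serpinb9b, its close paralog, had 0.901, 1.32 and 4.17 in TGFB1 spheroids, against 8.51, 8.93 and 8.40 in untreated spheroids (log2 fold change -1.76 ± 0.31, adjusted p = 0.00151). TGFB1 monolayers had 7.41, 5.44 and 5.31, against 2.53, 2.44 and 3.69 in untreated monolayers (log2 fold change 0.86 ± 0.31, adjusted p = 0.0807, difference between effects -2.62 ± 0.43, adjusted p = 0.00285). Every one of these 3 genes was lower in each TGFB1 spheroid library than in each untreated spheroid library, and higher in each TGFB1 monolayer than in each untreated monolayer. For spheroid culture of TGFB1 cells the change was -2.44 ± 0.16 for Serpinb6b, -1.25 ± 0.16 for Serpinb9 and -1.30 ± 0.31 for Serpinb9b (adjusted p = 6.03e-07, 8.02e-05 and 0.00443), and for that of untreated cells it was -0.38 ± 0.16, 0.56 ± 0.16 and 1.32 ± 0.31 (adjusted p = 0.069, 0.0122 and 0.00372).

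**Figure D3:**
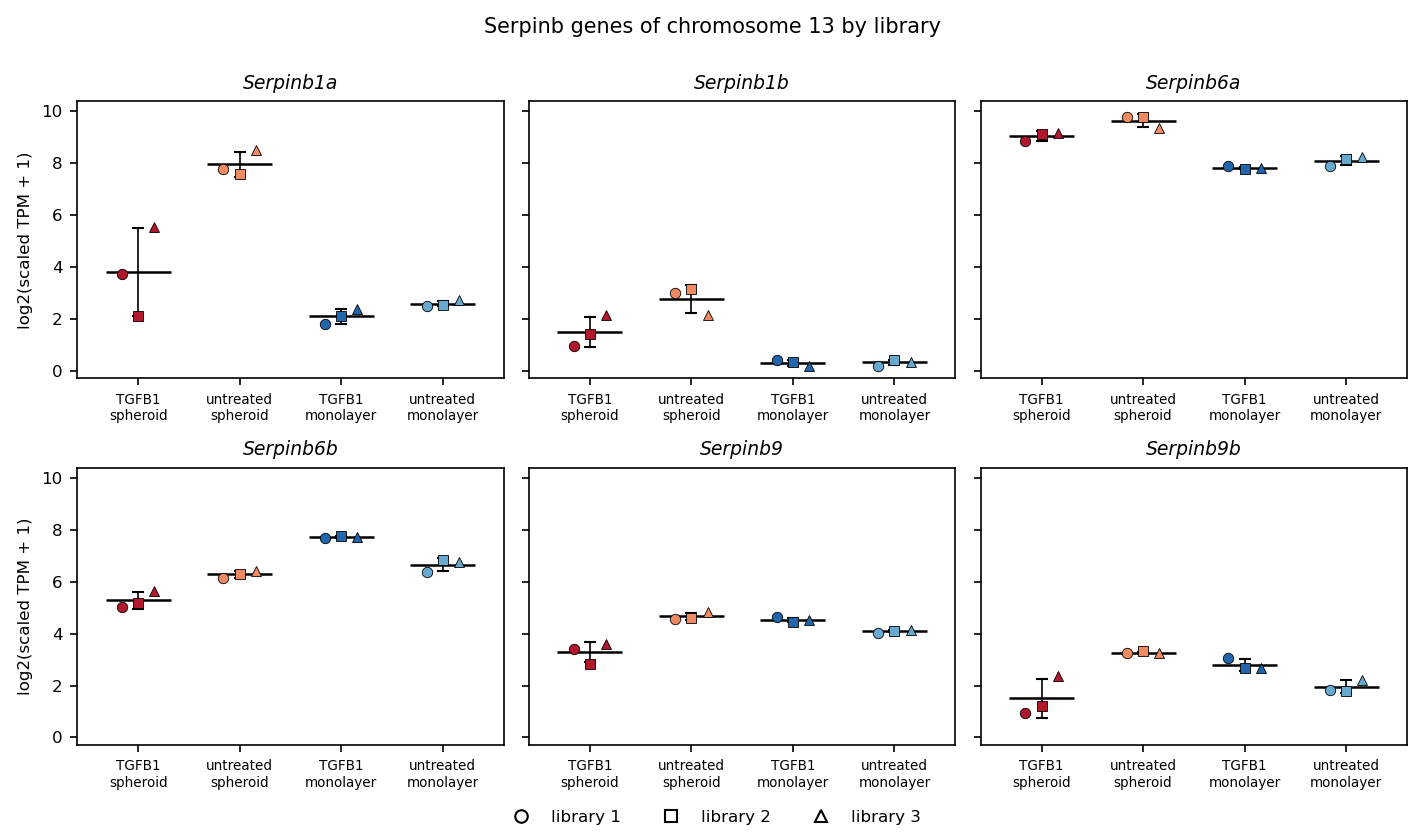
Log2(scaled TPM + 1) (y axis) of the 6 tested Serpinb genes of chromosome 13 in each library of the 4 groups (x axis). Symbols are libraries 1 to 3, horizontal lines are group means on this scale and bars are SD. In each panel the TGFB1 spheroids lie below the untreated spheroids, and for Serpinb6b, Serpinb9 and Serpinb9b the TGFB1 monolayers lie above the untreated monolayers.

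The clade b group of chromosome 1 (GRCm38, 106861173 to 107610484) holds 12 members, and 4 were tested: Serpinb2, Serpinb7, Serpinb8 and Serpinb11. With TGFB1 in spheroids 2 of the 4 were called higher and 1 lower, beside 18.8% and 16.8% of all genes. Serpinb11, which inhibits trypsin in the mouse, had 0.208, 0.524 and 16.1 scaled TPM in TGFB1 spheroids, against 79.3, 63.3 and 13.9 in untreated spheroids (log2 fold change -3.75 ± 0.88, adjusted p = 0.00726). It was at or below 0.106 in all monolayers, so that its rise in untreated spheroids was 5.30 ± 0.88 (adjusted p = 0.000438, 6.06 without untreated spheroid 3). Serpinb11 reached 1 only in spheroid libraries and passed the filter through that culture, so the call for this rise is not read as support. The spheroid groups overlapped because TGFB1 spheroid 3 and untreated spheroid 3 had similar values, and the TGFB1 effect was -4.97 without TGFB1 spheroid 3, -4.51 without untreated spheroid 3 and -3.06 without TGFB1 spheroid 1. Fitted on the 6 spheroid libraries alone it was not called (adjusted p = 0.0579).

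Serpinb8, whose human counterpart inhibits furin, had 9.79, 56.1 and 41.3 scaled TPM in TGFB1 spheroids, against 7.98, 10.97 and 3.71 in untreated spheroids (log2 fold change 1.89 ± 0.52, adjusted p = 0.0162). In TGFB1 monolayers it had 7.17, 6.93 and 7.78, against 16.3, 12.7 and 17.3 in untreated monolayers (log2 fold change -0.98 ± 0.52, adjusted p = 0.232). TGFB1 spheroid 1 lay within the untreated range. The difference between effects was 2.87 ± 0.74 (adjusted p = 0.024). The spheroid call was lost without untreated spheroid 3 (adjusted p = 0.0535), TGFB1 spheroid 2 (0.0715) or TGFB1 spheroid 3 (0.0515) and in the fit of the 6 spheroid libraries alone (0.0857), and was 2.62 without TGFB1 spheroid 1. The call for the difference was lost without untreated monolayer 1 or 3, TGFB1 monolayer 2 or TGFB1 spheroid 2 (adjusted p = 0.0536 to 0.0587). Spheroid culture of TGFB1 cells raised Serpinb8 by 1.84 ± 0.52 (adjusted p = 0.0121), a call lost without TGFB1 spheroid 2 (adjusted p = 0.0501). Serpinb7, the serpin megsin, was at 0 in untreated monolayers and had 0.116, 2.30 and 2.26 in TGFB1 spheroids, against 0.0518, 0 and 0 in TGFB1 monolayers (adjusted p = 0.0241). Untreated spheroids averaged 0.910. Serpinb7 reached 1 only in spheroid libraries, so it passed the filter through the culture where it was high, and the limma call is not read as support. That call was lost without any 1 TGFB1 monolayer library (adjusted p = 0.0502 to 0.0596). Only 4 fits without 1 library tested it and 1 kept the call. Without TGFB1 spheroid 2 or 3 it fell below the filter.

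The clade a cluster of chromosome 12 (GRCm38, 103614786 to 104414329) holds 24 members, and 9 were tested. Of these 6 were called higher and 2 lower with TGFB1 in spheroids, beside 18.8% and 16.8% of all genes, and 4 higher with TGFB1 in monolayers, beside 9.12%. These counts are descriptions and not a result about the cluster. They include Serpina3m and Serpina3a, which passed the filter through a single group, and the genes named next, which passed through TGFB1 libraries and share reads. Serpina3f, g, h and i, 4 neighbours of the family that expanded from an ancestor of human alpha-1-antichymotrypsin, rose with TGFB1 in both cultures and were near 0 in untreated cells. No untreated library of these 4 genes reached 1, so they passed the filter through TGFB1 libraries, where they were high. Their values are descriptions, and their calls for TGFB1 are not read as support. Serpina3i had 29.7, 53.7 and 51.7 scaled TPM in TGFB1 spheroids, against 0.216, 0.285 and 0.374 in untreated spheroids (log2 fold change 5.11 ± 0.51, adjusted p = 5.22e-05). In TGFB1 monolayers it had 26.9, 5.29 and 3.96, against 0.358, 0.612 and 0.214 in untreated monolayers (log2 fold change 2.79 ± 0.51, adjusted p = 0.00483). TGFB1 monolayer 1 was about as high as the lowest TGFB1 spheroid, and the groups with and without TGFB1 overlapped in neither culture. Serpina3h, annotated as a transcribed pseudogene, had 18.2, 35.2 and 32.1 in TGFB1 spheroids, against 0, 0 and 0.0962 in untreated spheroids (log2 fold change 4.79 ± 0.46, adjusted p = 3.99e-05). It had 17.1, 3.21 and 3.68 in TGFB1 monolayers, against 0.118, 0 and 0.317 in untreated monolayers (log2 fold change 2.64 ± 0.46, adjusted p = 0.00368). Without TGFB1 monolayer 1 the monolayer effect was 2.01 for Serpina3i and 1.96 for Serpina3h, and both stayed called.

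Serpina3g, which inhibits cathepsin B and is known as Spi2A, had 7.64, 12.7 and 12.6 scaled TPM in TGFB1 spheroids, against 0.257, 0.292 and 0.549 in untreated spheroids (log2 fold change 3.11 ± 0.37, adjusted p = 0.000169). It had 6.33, 1.84 and 1.19 in TGFB1 monolayers, against 0.0378, 0.21 and 0.102 in untreated monolayers (log2 fold change 1.68 ± 0.37, adjusted p = 0.0113). Serpina3f had the lowest levels of the 4, with 1.78, 2.76 and 2.63 in TGFB1 spheroids, against 0, 0.155 and 0.0336 in untreated spheroids (log2 fold change 1.66 ± 0.25, adjusted p = 0.000713), and 1.90, 0.602 and 0.367 in TGFB1 monolayers, against 0, 0 and 0.0296 in untreated monolayers (log2 fold change 0.87 ± 0.25, adjusted p = 0.0377). In each of the 4 genes the ranks were alike, with TGFB1 monolayer 1 above monolayers 2 and 3 and TGFB1 spheroid 1 below spheroids 2 and 3. The monolayer call of Serpina3f was lost in 5 of 6 fits that leave out 1 library (without any 1 untreated monolayer, TGFB1 monolayer 1 or TGFB1 monolayer 2; adjusted p = 0.0566 to 0.105). The interaction was called for Serpina3h alone among them (2.15 ± 0.65, adjusted p = 0.0475) and was lost in 10 of 12 fits without 1 library, all but those without TGFB1 monolayer 1 or TGFB1 spheroid 1 (adjusted p = 0.0586 to 0.113). Without TGFB1 monolayer 1 it was called for each of the 4 (1.94, 1.11, 2.82 and 3.10 for Serpina3g, f, h and i). These genes share reads: of the 31-base words in their transcripts, 27.3% (f), 28.4% (g), 39.8% (h) and 27.3% (i) also occur in other genes, the largest part in a neighbour, so how far each of them moved by itself is uncertain.

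Serpina3n, the clade member that inhibits granzyme B and leukocyte elastase, was high in spheroids and near 0 in monolayers. It had 171, 104 and 129 scaled TPM in TGFB1 spheroids, against 23.8, 16.8 and 29.3 in untreated spheroids (log2 fold change 2.49 ± 0.21, adjusted p = 1.32e-05). It had 0.188, 0.383 and 0.222 in TGFB1 monolayers and 0.195, 0.279 and 0.264 in untreated monolayers (log2 fold change 0.02 ± 0.21, adjusted p = 0.977). The spheroid groups did not overlap each other or the monolayers. Spheroid culture raised it by 6.72 ± 0.21 in TGFB1 cells and by 4.25 ± 0.21 in untreated cells (adjusted p = 6.34e-09 and 8.08e-08), and the difference between the TGFB1 effects was 2.47 ± 0.29 (adjusted p = 0.00047). Serpina3n reached 1 only in spheroid libraries, so it passed the filter through the culture where it was high. Its calls for spheroid culture are therefore not read as support. Serpina3m was listed at 0 in all monolayers and had 16.6, 3.16 and 7.07 in TGFB1 spheroids, against 0.749, 0.586 and 0.842 in untreated spheroids (log2 fold change 2.28 ± 0.39). It passed the filter only through TGFB1 spheroids, so no p is given. Words shared with other genes made up 21.6% of Serpina3n and 35% of Serpina3m.

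**Figure D4:**
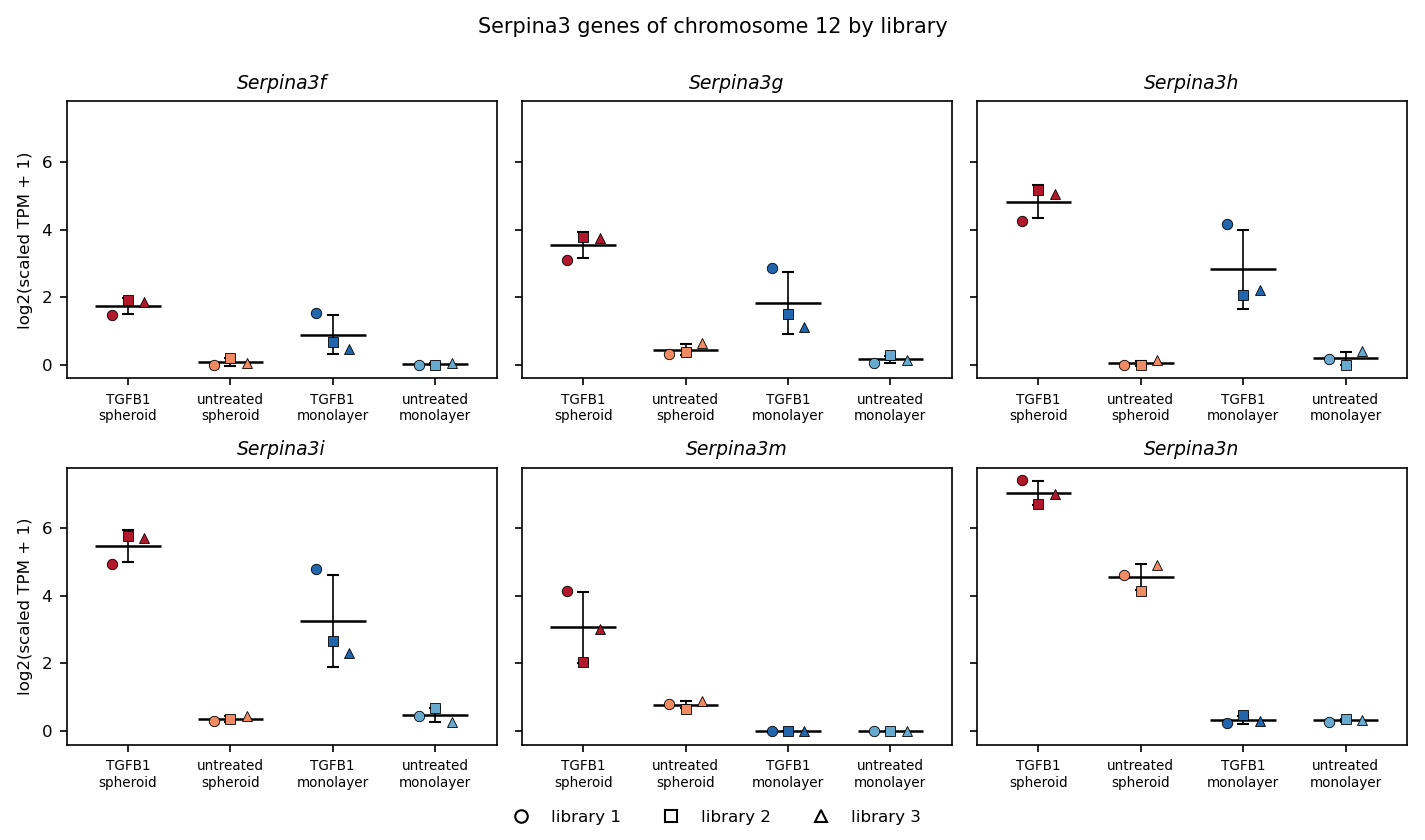
Log2(scaled TPM + 1) (y axis) of 6 Serpina3 genes of chromosome 12 in each library of the 4 groups (x axis). Symbols are libraries 1 to 3, horizontal lines are group means on this scale and bars are SD. Serpina3f, g, h and i are near 0 in both untreated groups, while Serpina3n is high in all 6 spheroid libraries and near 0 in all 6 monolayer libraries.

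The promoters of Serpina3f and Serpina3i, from the group that rose with TGFB1 in both cultures, are set beside that of Serpina3n, whose TGFB1 effect differed between the cultures. Each is the 250 bases before the first RefSeq transcript start, build GRCm38.p6, plus strand, 5′ to 3′, at chr12:104214294-104214543, chr12:104262872-104263121 and chr12:104406458-104406707. Capitals mark the 3 runs of at least 6 bases that all 3 windows hold in the same order, the longest of 15 bases. Aligned end to end, Serpina3f and Serpina3i were identical at 64.1% of positions, Serpina3i and Serpina3n at 62.2%, and Serpina3f and Serpina3n at 60.6%, while Serpina3g matched Serpina3i at 44.9% and Serpina3n at 41.4%. The Serpina3g window ends at 104236146, well before the annotated gene start at 104236245, so it is placed unlike the other windows. Its lower match therefore does not measure how alike the promoters are. AP-1, CAGACA and CAGGTG letters are in none of the 3 windows, and Serpina3f holds TATAAA on the other strand.
Serpina3f: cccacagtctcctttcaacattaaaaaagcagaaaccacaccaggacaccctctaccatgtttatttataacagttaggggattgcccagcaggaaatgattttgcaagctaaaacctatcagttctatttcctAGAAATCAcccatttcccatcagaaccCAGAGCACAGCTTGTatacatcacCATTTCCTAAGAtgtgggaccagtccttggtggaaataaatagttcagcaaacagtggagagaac
Serpina3i: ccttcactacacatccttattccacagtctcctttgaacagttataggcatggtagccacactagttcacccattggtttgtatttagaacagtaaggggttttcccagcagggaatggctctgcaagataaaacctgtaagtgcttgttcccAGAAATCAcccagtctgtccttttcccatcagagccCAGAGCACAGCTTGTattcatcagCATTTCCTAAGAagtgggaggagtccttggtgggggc
Serpina3n: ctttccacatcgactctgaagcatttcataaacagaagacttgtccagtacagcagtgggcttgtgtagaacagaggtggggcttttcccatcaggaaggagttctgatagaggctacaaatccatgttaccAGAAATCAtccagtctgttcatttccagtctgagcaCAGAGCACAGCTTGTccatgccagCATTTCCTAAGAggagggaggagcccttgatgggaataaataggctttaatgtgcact

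A pair of cluster members were high in untreated spheroids. Serpina3a was listed at 0 in all monolayers and had 0, 0.0502 and 0.418 scaled TPM in TGFB1 spheroids, against 4.55, 3.78 and 2.72 in untreated spheroids (log2 fold change -2.02 ± 0.19). It reached 1 only in untreated spheroids and passed the filter through that group alone, so no p is given. Serpina6, the corticosteroid-binding globulin, which carries hormone and inhibits no protease, was likewise at 0 in all monolayers and had 0.272, 0 and 2.89 in TGFB1 spheroids, against 12.1, 10.3 and 1.87 in untreated spheroids (log2 fold change -2.14 ± 0.57, adjusted p = 0.0142). The Serpina6 groups overlapped because TGFB1 spheroid 3 was above untreated spheroid 3, and the call was lost without untreated spheroid 1 or 2 or TGFB1 spheroid 2 (adjusted p = 0.056 to 0.065) and in the fit of the 6 spheroid libraries alone (adjusted p = 0.0814). It was -2.84 without untreated spheroid 3 and -2.74 without TGFB1 spheroid 3. Serpina1a, an alpha-1-antitrypsin gene, stood at 27.8, 0.636 and 0.637 in TGFB1 spheroids and at or below 2.60 in the other groups, so a single library held the high value (log2 fold change 1.53 ± 0.87, adjusted p = 0.197). In that library Serpina1c was at 8.83 and Serpina1b at 2.33, 65.2% of the 31-base words of Serpina1a also occur in other genes, and the hepatocyte markers Alb, Ttr and Fgb were at 0.

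Related genes of the pathway were read from 3 lists, and in each comparison up to 4 called genes with the largest changes are named. Of 18 genes for plasminogen, its receptors and partners of the urokinase receptor, 14 were tested. With TGFB1 in spheroids 6 were called higher and 1 lower, with TGFB1 in monolayers 6 higher and 0 lower, for spheroid culture of TGFB1 cells 7 and 0, and for that of untreated cells 10 and 0 (median log2 fold changes 0.246, 0.549, 0.524 and 0.966). The shares of all genes called in these comparisons were 35.6%, 16.9%, 51.9% and 55.2%. The 7 of 14 called for spheroid culture of TGFB1 cells lie near the share of all genes. For spheroid culture 25.3% of all genes were called higher in TGFB1 cells and 27.6% in untreated cells. Itga5, a fibronectin receptor chain that works with the urokinase receptor, averaged 565 scaled TPM in TGFB1 spheroids and 149 scaled TPM in untreated spheroids (log2 fold change 1.91 ± 0.22, adjusted p = 0.000136). Itgb5, a vitronectin receptor chain, averaged 328 scaled TPM in TGFB1 monolayers and 133 scaled TPM in untreated monolayers (log2 fold change 1.30 ± 0.12, adjusted p = 0.000134).

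Of 27 coagulation proteases, receptors and inhibitors outside the serpins, 10 were tested. With TGFB1 in spheroids 2 were called higher and 4 lower, for spheroid culture of TGFB1 cells 3 and 3, and for that of untreated cells 4 and 2, beside 35.6%, 51.9% and 55.2% of all genes, so the 6 of 10 called for each culture comparison lie near the share of all genes. With TGFB1 in monolayers limma called 0 of the 10, and 2 had an unadjusted p under 0.05, beside 16.9% of all genes called. The medians were -0.563, -0.00225, 0.369 and 0.0225. F2rl2 and F2rl3, both thrombin receptors, rose in untreated spheroids. F2rl2 averaged 28.9 scaled TPM in untreated spheroids and 0.361 scaled TPM in untreated monolayers (log2 fold change 4.45 ± 0.29, adjusted p = 7.15e-07), and F2rl3 averaged 7.05 scaled TPM in untreated spheroids and 0.126 scaled TPM in untreated monolayers (log2 fold change 2.57 ± 0.56, adjusted p = 0.00248). In TGFB1 cells F2rl2 averaged 31.7 scaled TPM in TGFB1 spheroids and 1.82 scaled TPM in TGFB1 monolayers (log2 fold change 3.68 ± 0.29, adjusted p = 2.28e-06). Gas6, a vitamin K-dependent ligand of the receptor Axl, averaged 146 scaled TPM in TGFB1 spheroids and 1960.1 scaled TPM in TGFB1 monolayers (log2 fold change -3.77 ± 0.24, adjusted p = 5.12e-07).

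Of 31 other proteases that serpins or SLPI act on or that work beside plasmin, 17 were tested. With TGFB1 in spheroids 3 were called higher and 4 lower, with TGFB1 in monolayers 5 and 2, for spheroid culture of TGFB1 cells 10 and 4, and for that of untreated cells 6 and 5 (medians 0.103, -0.205, 0.893 and 0.232), beside 35.6%, 16.9%, 51.9% and 55.2% of all genes. The 7 of 17 called with TGFB1 in spheroids lie near that share. Mmp2, gelatinase A, rose with TGFB1 in both cultures. It averaged 30.7 scaled TPM in TGFB1 spheroids and 0.549 scaled TPM in untreated spheroids (log2 fold change 4.35 ± 0.18, adjusted p = 8.43e-08), and it averaged 11.5 scaled TPM in TGFB1 monolayers and 2.11 scaled TPM in untreated monolayers (log2 fold change 1.99 ± 0.18, adjusted p = 0.0001), and the difference between the effects was 2.37 ± 0.25 (adjusted p = 0.000235). Mmp10, stromelysin 2, averaged 15.5 scaled TPM in TGFB1 spheroids and 2.23 scaled TPM in untreated spheroids (log2 fold change 2.33 ± 0.36, adjusted p = 0.000767), with a difference between the effects of 2.55 ± 0.51 (adjusted p = 0.00719). Pcsk6, a proprotein convertase, averaged 4.17 scaled TPM in TGFB1 spheroids and 18.6 scaled TPM in untreated spheroids (log2 fold change -2.01 ± 0.30, adjusted p = 0.000641) and averaged 4.17 scaled TPM in TGFB1 spheroids and 68.6 scaled TPM in TGFB1 monolayers (log2 fold change -3.84 ± 0.30, adjusted p = 2.01e-06). The differences between the TGFB1 effects were -1.80 ± 0.42 for Pcsk6 and -1.81 ± 0.17 for the secreted protease gene Htra1 (adjusted p = 0.0162 and 0.000118). Mmp13, collagenase 3, averaged 22.7 scaled TPM in TGFB1 spheroids and 0.285 scaled TPM in TGFB1 monolayers (log2 fold change 3.82 ± 0.56, adjusted p = 0.000212). Mmp3, stromelysin 1, averaged 10.4 scaled TPM in untreated spheroids and 0.116 scaled TPM in untreated monolayers (log2 fold change 3.32 ± 0.31, adjusted p = 7.97e-06). Masp1, a protease of the lectin pathway of complement, averaged 5.87 scaled TPM in untreated spheroids and 0.204 scaled TPM in untreated monolayers (log2 fold change 2.50 ± 0.26, adjusted p = 1.94e-05) and averaged 2.32 scaled TPM in TGFB1 monolayers and 0.204 scaled TPM in untreated monolayers (log2 fold change 1.38 ± 0.26, adjusted p = 0.00588). C1ra, of the classical pathway, averaged 51.7 scaled TPM in TGFB1 monolayers and 133 scaled TPM in untreated monolayers (log2 fold change -1.37 ± 0.16, adjusted p = 0.000477).

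A difference between the TGFB1 effects in the 2 cultures was called for 15 of the 28 tested members, 9 positive and 6 negative, beside 8.72% and 7.11% of all genes (15.8% in all), with a median of 0.246 over the members and -0.00934 over all genes. The positive ones were Serpinb2, Slpi, Serpinb8, Serpina3n, Serpina3m, Plat, Serpina3h, Serping1 and Serpine2. The negative ones were Serpinb1a, Serpinb9b, Serpinb6b, Serpina3a, Serpinf1 and Serpinb9. Serpina3m, Serping1 and Serpina3a passed the filter through a single group. Over the 13 members that averaged at least 1 in all 4 groups the calls were 4 positive and 5 negative, so the excess of positive ones is not seen there. Without TGFB1 spheroid 2 the number over all tested members was 9. In these differences culture cannot be told apart from library origin or from the timing of TGFB1, whose duration the labels give for spheroids alone.

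Snail is a repressor of epithelial genes. In Snail against vector libraries limma called 0 of the 12 tested members, beside 0.572% of the 12240 genes tested called higher and 1.14% lower (1.72% in all), and 6 of the 12 had an unadjusted p under 0.05. Groups did not overlap for 2 members higher and 3 lower, beside 20.6% of all genes. Slpi had 521, 486 and 489 scaled TPM in Snail libraries, against 428, 432 and 404 in vector libraries (log2 fold change 0.24 ± 0.052, adjusted p = 0.0755). Serpinh1 had 1200.2, 1251 and 1185 in Snail libraries, against 959.6, 1089 and 996 in vector libraries (log2 fold change 0.26 ± 0.061, adjusted p = 0.095). Neither pair of groups overlapped, with all Snail libraries higher. Plat had 43.9, 39.6 and 42.1 in Snail libraries, against 49.8, 50.2 and 45.6 in vector libraries, all lower (log2 fold change -0.21 ± 0.067, adjusted p = 0.199). In the authors' deposited table the q-value was under 0.05 for 2 of 22 members, Slpi (q = 0.00835) and Serpinh1 (q = 0.018), and Plat had q = 0.0592. Plaur had 139, 113 and 159 in Snail libraries and 157, 154 and 101 in vector libraries (log2 fold change 0.01 ± 0.19). Serpinb2 stayed at or below 0.401 in these monolayers. Serpinf1 had 6.72, 8.82 and 6.66 in Snail libraries, against 4.82, 7.60 and 4.21 in vector libraries (log2 fold change 0.38 ± 0.20, adjusted p = 0.446), and Serpine2, with 0.472, 0.798 and 0.668 in Snail libraries and 0.941, 0.588 and 0.647 in vector libraries, was below the filter. Of 14 tested receptor and partner genes, 8 coagulation genes and 12 other proteases, 1 was called lower and 0 higher (1, 3 and 2 of the lists had an unadjusted p under 0.05): Spint1, a membrane inhibitor of matriptase and hepsin, at 55.3 scaled TPM in Snail libraries and 90.0 scaled TPM in vector libraries (log2 fold change -0.69 ± 0.067, adjusted p = 0.00659).

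In the BRCA1 experiment 4 of 13 tested members were called, 2 higher and 2 lower in the libraries labelled BRCA1_ko, beside 9.04% and 5.27% of the 12775 genes tested (14.3% in all). Groups did not overlap for 3 members higher and 3 lower, beside 44.9% of all genes. Serpinb6a had 20.3, 26.4 and 20.7 scaled TPM in the libraries labelled BRCA1_ko, against 106, 56.5 and 107 in those labelled BRCA1_wt (log2 fold change -1.90 ± 0.30, adjusted p = 0.0113). Slpi had 149, 101 and 144 in the libraries labelled BRCA1_ko, against 604, 268 and 600.2 in those labelled BRCA1_wt (log2 fold change -1.82 ± 0.38, adjusted p = 0.0278). In both genes the groups did not overlap and BRCA1_wt library 2 lay between the libraries labelled BRCA1_ko and the others of its own label. Serpinb9b had 7.55, 5.44 and 6.35 in the libraries labelled BRCA1_ko, against 1.08, 2.09 and 1.47 in those labelled BRCA1_wt (log2 fold change 1.56 ± 0.25, adjusted p = 0.0115). Plat had 178, 133 and 404 in the libraries labelled BRCA1_ko, against 50.3, 88.1 and 41.0 in those labelled BRCA1_wt (log2 fold change 1.89 ± 0.47, adjusted p = 0.0431). Again the groups did not overlap, and library 3 labelled BRCA1_ko was highest for Plat. In the authors' deposited table these 4 were also the members with a q-value under 0.05, of 21 listed, with the same direction (q = 1.12e-05 for Serpinb6a, 0.001 for Slpi, 0.000133 for Serpinb9b and 0.0155 for Plat).

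Without library 1, 2 or 3 labelled BRCA1_ko, or without BRCA1_wt library 1, 0 of the 13 members were called in the limma fit. Over all genes these fits called 57, 182, 162 and 227. Without BRCA1_wt library 3 limma called 2 members, beside 618 of all genes, and without BRCA1_wt library 2 it called 7, beside 8295. Since the calls over all genes moved as well, these counts are not particular to the members. With libraries rescaled to equal sums it called 3 members, beside 904 of all genes, and Plat was lost (log2 fold change 2.42, adjusted p = 0.0624). Over the fits without 1 library the fold changes ranged from -2.20 to -1.75 for Serpinb6a and -2.21 to -1.62 for Slpi. For Serpinb9b they were 1.42 to 1.71 and for Plat 1.43 to 2.22. Serping1 had 27.6, 25.2 and 35.0 in the libraries labelled BRCA1_ko, against 14.2, 20.4 and 13.4 in those labelled BRCA1_wt, without overlap (log2 fold change 0.84 ± 0.26, adjusted p = 0.0638). Plaur (-0.06 ± 0.30), Serpinh1 (-0.31 ± 0.29), Serpinf1 (-0.32 ± 0.32) and Serpine2 (-0.01 ± 0.32) overlapped between the groups, and Serpinb2 stayed at or below 0.141. Of 15 tested receptor and partner genes 1 was called higher and 2 lower, of 8 coagulation genes 0 and 2, and of 12 other proteases 0 and 1. Of all genes 14.3% were called, and with lists this short these counts are not read as a result about the lists. Vldlr, which clears complexes of activator and inhibitor, averaged 55.4 scaled TPM in the libraries labelled BRCA1_ko and 6.56 scaled TPM in those labelled BRCA1_wt (log2 fold change 3.36 ± 0.64, adjusted p = 0.0209). Anxa2 and S100a10, which together form a plasminogen receptor, averaged 49.3 scaled TPM and 128 scaled TPM in the libraries labelled BRCA1_ko, against 410.5 scaled TPM and 873 scaled TPM in those labelled BRCA1_wt (log2 fold changes -2.89 ± 0.54 and -2.49 ± 0.58, adjusted p = 0.0203 and 0.0367). Tfpi, the inhibitor of tissue factor, averaged 12.6 scaled TPM in the libraries labelled BRCA1_ko and 54.4 scaled TPM in those labelled BRCA1_wt (log2 fold change -2.02 ± 0.22, adjusted p = 0.0035). Krt18, a simple-epithelium keratin, was 132, 152 and 134 in the libraries labelled BRCA1_ko, against 577, 253 and 774 in those labelled BRCA1_wt. All 11 ovarian surface and mesothelial markers, Krt18 among them, averaged at least 1 scaled TPM under both labels. Their summed level was 2949 to 3074 in the libraries labelled BRCA1_ko and 3023 to 3417 in those labelled BRCA1_wt, so the ranges overlapped. Of 6 granulosa and theca markers 2 averaged at least 1 in the libraries labelled BRCA1_ko and 3 in those labelled BRCA1_wt. The summed level of these 6 was 129 to 225 in those labelled BRCA1_ko and 46.4 to 50.2 in those labelled BRCA1_wt. The part of these differences in the serpin values was not tested.

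**Figure D5:**
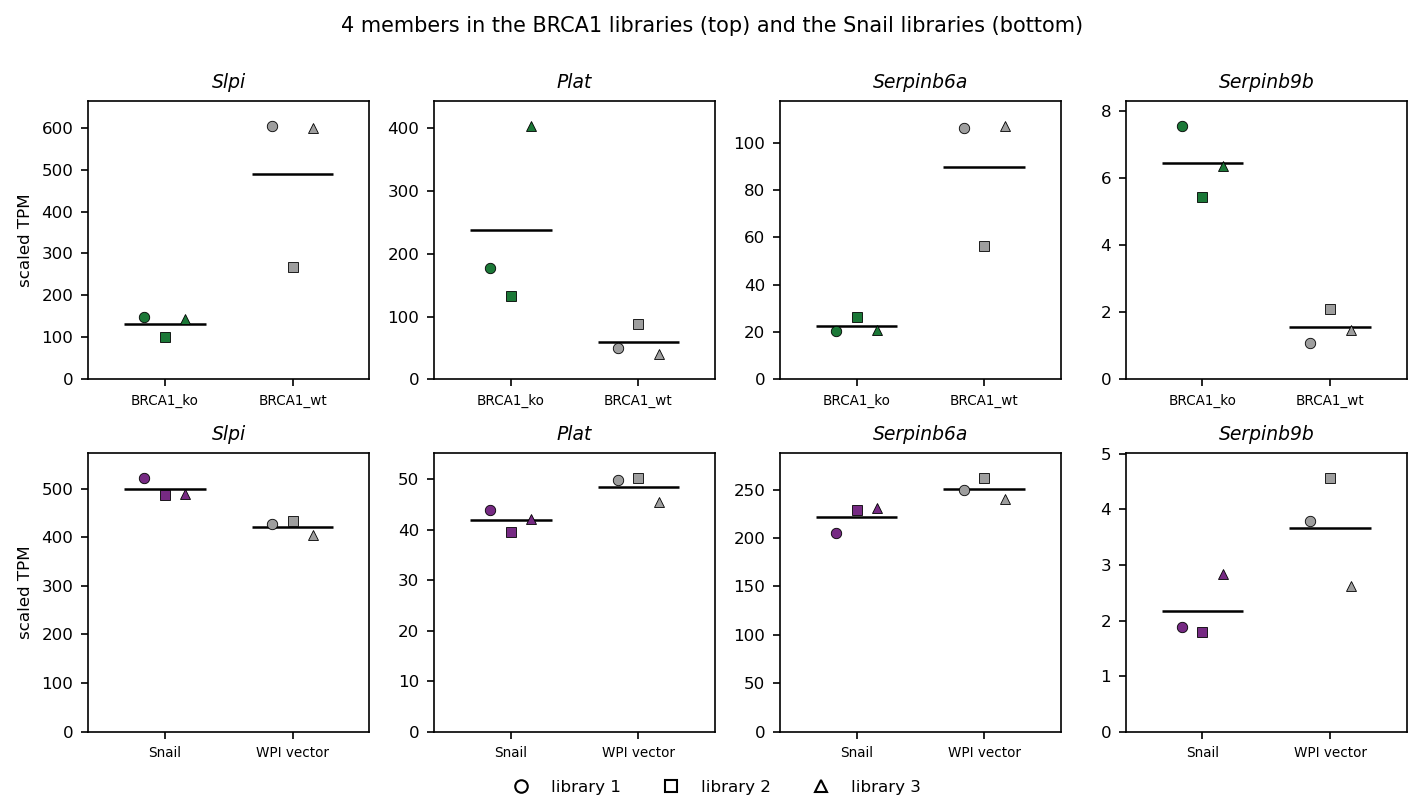
Scaled TPM (y axis from 0, different ranges) of Slpi, Plat, Serpinb6a and Serpinb9b in each library labelled BRCA1_ko and BRCA1_wt (top) and in each Snail and vector library (bottom). Symbols are libraries 1 to 3 and lines are group means. In the top row the groups do not overlap, and in the bottom row Slpi, Plat and Serpinb6a do not overlap between the groups while Serpinb9b does.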

How the data were processed

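Per the submitters' processing notes, reads were quantified with kallisto 0.44.0 and compared with sleuth 0.30.0, and the genome build was GRCm38. Per the labels' protocols, libraries were made from poly(A) RNA with a directional kit. The authors deposited a signal per gene and library, named TPM in the tables. Since its sums differ between libraries it was treated as TPM scaled per library, although the analysis had been planned for TPM. Their deposited tables for Snail and BRCA1 also give p-values and q-values and, per the file headers, sleuth coefficients, taken to be on the natural log scale. Groups followed the titles, and every column used was matched to a label. All genes with at least 1 scaled TPM in at least 3 libraries of an experiment were fitted on log2(value + 1) with limma 3.58.1 in R 4.3.3, with the 12 libraries of the first experiment in one fit and 6 in each of the others, and p-values were adjusted by Benjamini-Hochberg. Without counts, read depth and its precision are unknown. The fit was tested on simulated data. Alternatives were a pseudocount of 0.1, no filter, equal sums, library quality weights, only the 6 libraries compared, the replicate block and leaving out each library. Always described were Plau, Plat, Plaur, Slpi, Serpine2, Serpinb2, Serpinh1 and Serpinf1; other members were described where called with a log2 change of at least 1 and groups that do not overlap, and Serpina1a was added after its values were seen. Values of 1 member are not reported here, though it is counted among the members. The members and lists were chosen with earlier results of these data known. Promoters are from RefSeq (21 of the 28 tested members matched), gene positions and shared 31-base words from GENCODE M21, read with Python 3.11.15.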

Additional observations from a re-analysis of the deposited data

Results flagged for a closer look

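The effect of TGFB1 in spheroids minus that in monolayers passed limma's test for 15 members, which is why they are listed here. Culture, library origin and the timing of TGFB1 cannot be told apart in it. Positive differences (log2) were 6.49 for Serpinb2, 6.27 for Slpi, 2.87 for Serpinb8, 2.47 for Serpina3n, 2.28 for Serpina3m, 2.21 for Plat, 2.15 for Serpina3h, 1.54 for Serping1 and 1.53 for Serpine2. Negative differences were -3.66 for Serpinb1a, -2.62 for Serpinb9b, -2.06 for Serpinb6b, -2.02 for Serpina3a, -1.95 for Serpinf1 and -1.82 for Serpinb9. For Slpi, Serpinb6b, Serpinb9 and Serpinb9b every TGFB1 library lay on one side of its untreated libraries in spheroids and on the other side in monolayers, though the monolayer effects of Serpinb9 and Serpinb9b did not pass the test (adjusted p = 0.0894 and 0.0807). Serpina3m and Serpina3a were listed at 0 in all monolayers, so their differences rest on spheroid libraries alone. These genes and Serping1 passed the filter through the single group where they are high.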

How the results depend on the processing

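Of the 89 calls of members over the 7 comparisons, 71 held in every fit without 1 library that tested the member and 71 in every other setting that tested it, and no called change reversed in these fits. Of the first 71, 62 were tested in all such fits; the other 9 are calls of Serpina3a, Serpina3m and Serping1, which fell below the filter without any 1 library of the group where they are high, leaving 3 of 6 fits, or 9 of 12 for the interaction. Members called for BRCA1 deletion were 4 as reported, 2 with no filter, 3 with libraries rescaled to equal sums (Plat lost, adjusted p = 0.0624), 10 with library quality weights, 0 with the replicate block and 0 to 7 when 1 library was left out; all genes called were 1828, 1091 with no filter, 904 with libraries rescaled to equal sums, 11536 with quality weights, 433 with the replicate block and 57 to 8295 without 1 library. For Snail 0 members were called and 1 with quality weights, and all genes were 210, 54 with no filter, 16 with the replicate block and 23 to 74 without 1 library. For the interaction 15 members were called and 9 to 17 without 1 library, and all genes were 2138, 4385 with quality weights and 1307 to 2658 without 1 library. All genes called for TGFB1 in monolayers were 2284, 6431 with quality weights, 3771 in a fit of those 6 libraries and 1220 to 1715 without 1 library. For TGFB1 in spheroids they were 4810, 2787 in the fit of 6 and 3095 to 4816 without 1 library. For spheroid culture of untreated cells 14 members were called and 22 with quality weights. The quality weights did not converge for the BRCA1 libraries, so their counts there are no usable alternative; the causes of the other moves were not tested. Libraries of different groups with the same replicate number had correlations of deviations of -0.32 to 0.186 in the first experiment. They were -0.0783 to 0.331 with Snail and -0.167 to -0.0534 with BRCA1. With 3 libraries a group, these values cannot show whether a shared number marks a shared culture or day. In the BRCA1 experiment the replicate block ended all 4 member calls. In the first experiment it ended the limma calls of Serpina3f for TGFB1 in monolayers (adjusted p = 0.0655) and Serpina3h for the interaction (0.0757). It added that of Serpinb6b for spheroid culture of untreated cells (0.0242). Unknown depth limits what can be said of members near 0.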
